A study of Mus musculus with 25 samples.

Results

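Livers of mice that had received concanavalin A (ConA) followed by BW245C were compared, 24 hr after the injections, with livers of untreated mice. The members are the 5 arrays labelled ConA + BW245C at 24 hr and the 5 arrays labelled non-treated liver, 10 of the 25 arrays of the study, and the comparison runs across 15124 genes. ConA, a lectin from the jack bean, is a T cell mitogen that causes an immune-mediated hepatitis when injected into mice, and BW245C is a synthetic compound that activates the prostaglandin D2 receptor DP1. All animals were female C57BL/6NcrSlc mice, of an age that the labels do not state. The treated mice received 10 mg/kg ConA and, 15 min later, 1 mg/kg BW245C intraperitoneally, while the untreated mice, whose liver is labelled unstimulated, received neither agent nor vehicle as far as the labels say. The remaining 15 arrays were of livers 3 hr after ConA and BW245C, 3 hr after ConA and vehicle, and 24 hr after ConA and vehicle, with 5 mice in each group. Mice given BW245C without ConA are not analysed here, so the comparison with untreated liver contains the lectin and the agonist together. The question it addresses is what remained altered in the liver at the later time under the agonist.

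In ConA hepatitis, activated T and NKT lymphocytes release interferon-gamma and tumour necrosis factor, neutrophils and monocytes enter the tissue, and hepatocytes and sinusoidal endothelial cells are injured. Interferon-gamma acts on genes whose promoters hold gamma-activated sites (GAS), and type I interferons act through a STAT and IRF9 complex that binds the interferon-stimulated response element (ISRE). The liver answers inflammation by making acute phase proteins at the expense of metabolic functions, and lost hepatocytes are replaced by division of the remaining ones.

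Each array carried 59305 spots other than controls, and between 52.2% and 61.6% of them were well above background on an array. No spot was saturated, and no pair of arrays held identical values. A level is given as the log2 of the processed Cy3 intensity minus the array's 75th percentile, so that 0 is the brightness of the 75th percentile spot. Levels of different genes come from different probes and are not set against each other. The arrays lay on 5 slides. Slide 1 held 4 untreated mice, slide 2 held untreated replicate 2 and BW245C-treated replicate 3, slide 4 held 3 BW245C-treated mice and slide 5 the last one, so that slide 2 alone held both groups. Mice given vehicle lay on slides 1 to 4 and link these slides in a fit with slide as a term. Slide 5 held only BW245C-treated replicate 5, so in such a fit its own slide term takes up that array. Differences of the BW245C-treated group at 24 hr then rest on the other treated mice. Albumin, the main product of hepatocytes, had a level of 10.66, 10.48, 10.34, 10.43 and 10.44 in the untreated and 10.06, 10.34, 10.29, 9.98 and 10.17 in the treated mice, so the tissue's defining marker was present throughout.

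One array stood apart. In BW245C-treated replicate 4, enzyme genes of the pancreatic acinar cell, which were looked at after the values of the elastase gene Cela2a had been seen, were higher than on any other array. All 16 of the 16 such genes on the array had their highest level of 25 arrays there. The carboxypeptidase gene Cpb1 had a level of 7.40 in that mouse and was not above background on the other 24 arrays, where its median was -6.41. The lipase gene Pnlip had 6.96 against a median of -6.57. Without this mouse 7864 genes differed from untreated liver in place of 8550, 7776 of them among the 8550 and in the same direction, and the median change of a gene list described below moved by at most 0.12 on the log2 scale. Cela2a and Reg3g are given below with and without this mouse. The counts of list members below include it, and some changed without it. Anti-apoptotic genes higher went from 9 to 6, chemokines higher from 19 to 17 and fatty acid oxidation genes lower from 23 to 19. Clock genes higher went from 4 to 2, and heat shock genes from 4 higher and 2 lower to 6 and 1.

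Of the 15124 genes tested, 8550 (56.5%) differed between ConA + BW245C liver at 24 hr and untreated liver at an adjusted p under 0.05 in limma, 3441 (22.8%) higher and 5109 (33.8%) lower. At least 2-fold changes were found for 2687 genes (17.8%), of which 1532 were higher and 1155 lower. For 6580 genes (43.5%) the 5 treated and the 5 untreated arrays did not overlap. The median log2 difference over all genes was -0.09. The deposited series matrix, in which each array was multiplied by a factor of its own, placed that median at 0.15 and the split at 5504 higher and 3180 lower of 8684, so small changes have no settled direction, and the lists below are to be read against these medians. A second fit that also took the slide as a block is referred to below as adjustment for slide. It called 5524 of the 15124 genes, 2365 higher and 3159 lower. Of the 8550, 4890 were among these, none in the opposite direction. Slide-adjusted counts of a list are to be read against the 2365 and 3159. On slide 2 the treated mouse differed from the untreated one by a median of -0.07. The numbers printed with a gene below are the log2 difference ± the standard error of the fit, and "rose" and "fell" are used only for adjusted p under 0.05. Where a probe is near-identical to copies of the gene, as can be the case for Saa, Orm, Hamp, Tgtp, Oas1, Sult2a, Gst, Ugt2, Cyp2b, Hsd3b, Bcl2a1 and Hspa1 genes, the copies may share its signal.

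Some of the genes named below were above background on only part of a group's arrays, so that their folds include values at background. Among untreated arrays this holds for Ubd, Stat4, Prtn3 and Tff3 (4 of 5 above background), Ifng, Il1rn and Ptgir (3 of 5), Tnf, Il10, Ccl7 and Egr2 (2 of 5) and Il6, Gpnmb and Bub1 (1 of 5). Among treated arrays it holds for Chrna4, Pnpla3, Il10, Cxcl2, Ptgs2 and Gata1 (4 of 5), Slc2a4, Cxcl13, Ankrd1 and Ciart (3 of 5), Cxcl3 (2 of 5), and Cd209a, Reln, Prok2 and Sele (1 of 5). Ankrd1 was above background on 3 of 5 untreated arrays as well.

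The largest increases, of which 11 are described, included interferon-induced, acute phase and myeloid genes. Ubd, which encodes the ubiquitin-like modifier FAT10, had levels of -3.67, -3.34, -2.60, -4.09 and -4.39 in the untreated mice and 5.18, 5.03, 6.16, 5.86 and 5.66 in the treated mice. That is a 587-fold increase (9.20 ± 0.33, adjusted p = 8.97e-16), with every treated mouse far above every untreated one. Saa3, an acute phase serum amyloid, rose 375-fold (8.55 ± 0.21), from 1.68, 1.04, 1.34, 0.78 and 0.63 to 9.55, 9.79, 9.63, 9.53 and 9.73. The treated values lay within a narrow band at the top of the scale. Lcn2, which binds bacterial siderophores, rose 127-fold (6.99 ± 0.17), and its treated levels were 9.60, 9.77, 9.84, 9.58 and 9.73, against untreated levels of 2.18, 3.00, 2.66, 2.94 and 2.79. Cxcl9, a chemokine for activated T cells, rose 90.9-fold (6.51 ± 0.20) and the lens crystallin gene Crybb3 85.1-fold (6.41 ± 0.38).

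**Figure D1:**
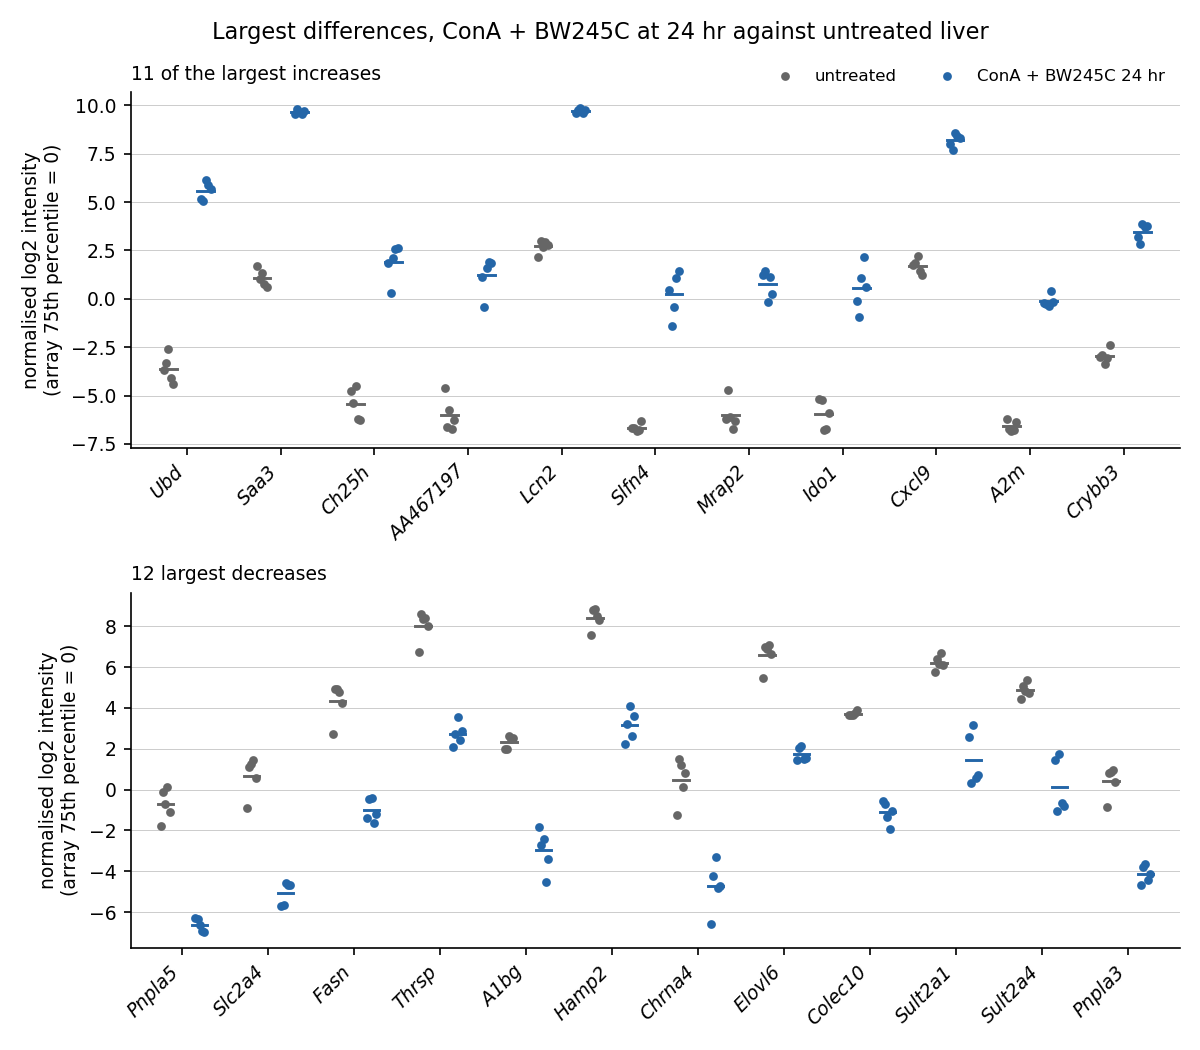
Normalised log2 intensity (vertical axis, array 75th percentile at 0) of 11 genes with the largest increases and the 12 with the largest decrease in ConA + BW245C liver at 24 hr (blue) against untreated liver (grey). Points are single mice (n = 5 per group) and bars are group means, and for each of these genes the groups do not overlap.

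Another 6 of the largest increases were of genes that none of the untreated arrays showed well above background, so their folds are lower bounds, the mean of the treated arrays against the lowest detectable signal on the untreated ones. Ch25h, the interferon-inducible cholesterol 25-hydroxylase, was at least 90.1-fold higher (adjusted p = 3.92e-12), with treated levels of 1.86, 0.28, 2.10, 2.56 and 2.65. Replicate 2 was the lowest. AA467197 was at least 58.1-fold higher (adjusted p = 2.58e-12) and Mrap2, an accessory protein of melanocortin receptors, at least 43.7-fold (adjusted p = 5.99e-14). Ido1, which degrades tryptophan in response to interferon, was at least 37.6-fold higher (adjusted p = 2.78e-10) and spread widely among the treated mice, at -0.10, -0.92, 1.09, 2.15 and 0.59. Slfn4, a Schlafen gene of myeloid cells, was at least 30-fold higher (adjusted p = 7.40e-12), at 0.45, -1.40, -0.40, 1.08 and 1.44, and A2m, a broad protease inhibitor, at least 23.4-fold (adjusted p = 4.41e-11), at -0.21, -0.29, -0.38, 0.38 and -0.14. Adjusted for slide, all 11 of these genes stayed above untreated, with log2 differences of 5.50 (Mrap2) to 9.17 (Ubd), and the single pair on slide 2 gave 4.54 and 9.50 for these genes.

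Genes induced by interferons were higher almost throughout. Of the 28 measured genes of the interferon-gamma list, 27 rose and none fell, with a median log2 difference of 2.70, and all 22 measured genes of the type I interferon list rose, with a median of 2.41. The promoters of 4 of the genes named below are shown because they hold letters of the kind that interferon-activated factors are known to bind. The 250 bases before the annotated start are given 5′ to 3′ on the gene's strand (RefSeq, GRCm38.p6), with matches to the GAS pattern TTCNNNGAA and the ISRE core GAAANNGAAA, on either strand, in capitals; overlapping matches run together.
Gbp2, chr3:142620413-142620662, plus strand: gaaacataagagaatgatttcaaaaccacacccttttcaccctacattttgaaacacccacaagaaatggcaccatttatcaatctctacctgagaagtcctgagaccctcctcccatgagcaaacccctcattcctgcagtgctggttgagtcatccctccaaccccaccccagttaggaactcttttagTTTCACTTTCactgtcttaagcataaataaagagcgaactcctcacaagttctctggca
Tgtp1, chr11:48992247-48992496, minus strand: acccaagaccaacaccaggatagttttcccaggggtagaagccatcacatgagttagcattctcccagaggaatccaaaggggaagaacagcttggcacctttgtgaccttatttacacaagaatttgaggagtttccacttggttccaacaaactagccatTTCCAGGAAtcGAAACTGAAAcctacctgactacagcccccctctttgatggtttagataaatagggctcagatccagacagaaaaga
Isg15, chr4:156200819-156201068, minus strand: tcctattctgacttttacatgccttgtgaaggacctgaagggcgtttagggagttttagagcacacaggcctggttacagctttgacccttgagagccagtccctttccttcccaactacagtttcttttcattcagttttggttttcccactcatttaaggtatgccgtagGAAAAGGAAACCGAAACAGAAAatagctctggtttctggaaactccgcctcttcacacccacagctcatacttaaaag
Oas1a, chr5:120907526-120907775, minus strand: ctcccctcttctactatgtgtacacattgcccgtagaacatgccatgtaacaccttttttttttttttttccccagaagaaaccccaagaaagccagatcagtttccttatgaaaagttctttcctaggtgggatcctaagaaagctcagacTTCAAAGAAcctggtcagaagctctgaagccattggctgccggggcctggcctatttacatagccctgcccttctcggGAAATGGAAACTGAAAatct

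In Gbp2 an ISRE core on the opposite strand starts 59 bases before the annotated start. In Tgtp1 a GAS match at 88 bases is followed by an ISRE core at 77, and in Isg15 a run of 3 overlapping ISRE cores starts at 78, 72 and 66 bases before the start. Oas1a has a GAS match at 98 bases and a pair of overlapping ISRE cores at 20 and 14. Among windows of 250 bases, the ISRE core was found in 10 of 23 (43.5%) for the measured genes of the interferon-gamma list and in 8 of 20 for those of the type I list, against 978 of 32851 (2.98%) for all promoters in the table. The GAS pattern was found in 8 of 23 (34.8%) and 4 of 20, against 2306 of 32851 (7.02%). A match is a run of letters and says nothing of binding.

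Gbp2, a guanylate-binding protein of the interferon-gamma response, had levels of 0.91, 0.65, 1.10, 0.37 and 0.63 in untreated and 6.44, 5.90, 6.73, 6.84 and 6.95 in treated liver, a 57.4-fold rise (5.84 ± 0.21, adjusted p = 1.06e-15). Tgtp1, a T cell-specific GTPase whose near-identical copy Tgtp2 may share the probe, rose 20.6-fold (4.36 ± 0.17), from -3.57, -3.60, -3.87, -3.93 and -3.83 to 0.52, 0.62, 0.30, 0.53 and 1.05. In the type I list, the sensor of nucleic acids Zbp1 rose 15.9-fold (3.99 ± 0.18). Isg15 of the same list, a ubiquitin-like modifier, rose 13.4-fold (3.74 ± 0.21), from 3.75, 3.76, 3.68, 3.99 and 3.81 to 7.46, 7.45, 7.60, 7.28 and 7.92. For Isg15 the groups were separated by several times the spread within each. The oligoadenylate synthetase genes Oas1a and Oasl2 rose by 3.42 ± 0.18 and 3.73 ± 0.22 on the log2 scale. The 5 treated mice had list medians of 2.55, 2.44, 2.47, 2.68 and 2.91 for the interferon-gamma genes and 2.41, 1.83, 2.17, 2.14 and 3.01 for the type I genes, with replicate 2 lowest and replicate 5 highest in both. In the slide-adjusted fit, 27 and 21 of the genes were called, with medians of 2.48 and 2.30, and the pair on slide 2 gave 2.75 and 2.37.

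Antigen presentation genes were higher as well. Of 13 measured genes of the immunoproteasome and of peptide loading onto MHC class I, 12 rose and none fell (median 1.47), among them the peptide transporter subunits Tap1 (2.30 ± 0.16) and Tap2 (1.90 ± 0.10), the catalytic immunoproteasome subunit Psmb8 (2.56 ± 0.16) and tapasin, Tapbp (1.61 ± 0.11). Of 13 MHC class II genes, 9 rose and none fell (median 0.87). The peptide exchange subunits H2-DMa and H2-DMb1 rose by 1.58 ± 0.28 and 1.49 ± 0.21, the modulator subunit H2-Oa by 0.87 ± 0.17 and the class II beta chain H2-Ab1 by 1.07 ± 0.24. The median of the class II genes was 0.79, 0.57, 1.15, 0.82 and 0.95 in the 5 treated mice and ranged from -0.38 to 0.16 in the untreated mice. When slide was adjusted for, 11 and 7 genes were called, with medians of 1.50 and 1.05, and slide 2 gave 1.54 and 1.14.

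Chemokine genes were raised, most of them strongly. Of 25 measured members, 19 rose and 2 fell, with a median of 2.27. Ccl7, which attracts monocytes, rose 84.1-fold (6.39 ± 0.34), and Cxcl1, which attracts neutrophils, 17.8-fold (4.15 ± 0.24). The levels of Cxcl1 were -2.01, -2.14, -1.63, -2.62 and -2.21 in untreated and 2.23, 1.20, 1.84, 2.41 and 2.47 in treated mice, with treated replicate 2 lowest. Ccl11, the eosinophil attractant eotaxin, was not well above background in untreated liver and was at least 7.7-fold higher (adjusted p = 3.62e-13). The 2 that fell were Cxcl13, which attracts B cells (-3.40 ± 0.45), and Cxcl12, which retains haematopoietic cells (-0.88 ± 0.13). Under adjustment for slide, 16 were higher and 2 lower (median 2.76), and slide 2 gave 2.90.

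Among cytokines, 16 of 26 measured genes rose and 1 fell, with a median of 0.96. Ifng, interferon-gamma itself, had levels of -4.77, -4.62, -4.33, -5.20 and -4.96 in untreated and -1.77, -2.44, -1.88, -1.64 and -1.19 in treated liver, a 7.97-fold rise (3.00 ± 0.25, adjusted p = 6.95e-10). Tnf, tumour necrosis factor, rose 12.9-fold (3.69 ± 0.37), to -1.84, -3.47, -1.71, -1.65 and -1.01, and Il6, the inducer of hepatic acute phase genes, 15.2-fold (3.93 ± 0.34), to -1.07, -1.21, -2.37, -0.98 and -1.44. No treated mouse overlapped with the untreated ones for these cytokines. The interleukin 1 receptor antagonist gene Il1rn rose by 4.17 ± 0.23 and lymphotoxin beta, Ltb, by 2.99 ± 0.24, while Il18 fell (-0.99 ± 0.12). Il10 and Il4, cytokines that restrain or redirect T cell responses, rose less (0.94 ± 0.24 and 0.68 ± 0.15) and lost their calls after adjustment for slide, at 0.38 (adjusted p = 0.522) and 0.57 (adjusted p = 0.137). In that fit 12 cytokine genes were higher and 2 lower (median 0.89, slide 2 1.02).

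The genes of JAK-STAT signalling and its feedback moved both ways, 8 of 19 up and 4 down, with a median of 0.23. The feedback inhibitors Socs1 and Socs3 rose 13.1-fold (3.71 ± 0.22) and 6.56-fold (2.71 ± 0.24). The lymphoid genes Stat4 (2.30 ± 0.20) and Jak3 (1.96 ± 0.13) rose too, although a second Jak3 probe gave a difference near 0.99. Stat5b, which carries growth hormone signals in the liver, fell (-0.73 ± 0.09). After adjustment for slide, 7 were higher and 1 lower (median 0.42, slide 2 0.53).

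Marker genes of neutrophils, T and NK lymphocytes and monocytes were mostly higher in the treated livers, and those of B and plasma cells were mixed. In whole tissue, more cells of a type and more RNA per cell cannot be told apart, nor can fewer cells and less RNA per cell. Neutrophil markers stood out, with 16 of 21 higher, 2 lower and a median of 3.64. The calprotectin subunits S100a8 and S100a9 rose 71.7-fold (6.16 ± 0.36) and 62.8-fold (5.97 ± 0.33), with S100a8 at -2.61, -2.74, -2.71, -3.18 and -1.91 in untreated and 3.89, 2.49, 2.97, 4.0 and 4.33 in treated mice. Prtn3, a granule protease, rose by 3.11 ± 0.23, while Fpr1, a receptor for formylated peptides, fell (-1.24 ± 0.30), a call lost in the slide-adjusted fit (-1.30, adjusted p = 0.0531). The intensities of the neutrophil list, on a linear scale in units of the array's 75th percentile, summed to 136 to 146 in untreated and 959 to 1071 in treated mice. Lcn2, which is also on the acute phase list, made up 79.4% to 85.9% of the treated sums, and without it the sums were 128 to 140 in untreated and 147 to 221 in treated mice. Such sums follow the brightest probes and are no measure of cell number. In untreated liver Cxcr2, Mmp8, Ngp, Ltf, Il1r2, Cd177 and Stfa2l1 were not above background on any array. All 21 markers were above background on some treated array. The list median of 3.64 thus includes values at background and is no exact size. The same holds for the medians of the T and NK and cytotoxic lists below.

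Markers of T and NK lymphocytes followed, with 22 of 24 higher and 1 lower (median 2.37). Thy1, a pan-T cell surface protein, had levels of -0.75, -0.90, -0.57, -0.90 and -0.70 in untreated and 2.03, 1.87, 2.24, 1.88 and 2.27 in treated mice, a 7.09-fold rise (2.83 ± 0.15). Cd5 (2.78 ± 0.17), Cd28 (2.64 ± 0.17) and the interleukin 2 receptor chain Il2rb (2.76 ± 0.17) rose to a like extent, and Zap70, a kinase of T cell receptor signalling, fell (-0.82 ± 0.14). The summed intensity of this list ranged from 45.3 to 84.4 in untreated and from 51.5 to 85 in treated mice and thus overlapped, and without Cd4, its brightest member, from 14 to 16.3 in untreated and from 25.9 to 31.1 in treated mice. Cd247, Cd8a, Klrk1, Ncr1, Il7r and Ctla4 were not above background in any untreated mouse. Of 15 cytotoxic effectors, 12 rose and none fell (median 2.19), among them the granzymes Gzma (3.72 ± 0.22) and Gzmb (4.59 ± 0.29) and Tbx21, the T-bet transcription factor (2.61 ± 0.19). Their summed intensity was 11.6 to 13.1 in untreated and 28.4 to 58.5 in treated liver, and Eomes and Pdcd1 were not above background in any untreated mouse.

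Monocyte and macrophage markers rose in 9 of 16 cases with none lower (median 1.06), led by Chil3 (55.8-fold, 5.80 ± 0.34), Plac8 (2.63 ± 0.17), the lipopolysaccharide co-receptor Cd14 (4.11 ± 0.27) and Gpnmb (3.58 ± 0.39). The summed intensity of that list was 26.1 to 32.7 in untreated and 59.8 to 86 in treated liver, and all 16 were above background in both groups. Dendritic cell markers rose in 7 of 10 cases, with the migration receptor Ccr7 at 2.29 ± 0.20 and Itgax at 2.54 ± 0.28, and 1 fell, Cd209a (-2.39 ± 0.22). Without Siglech, their brightest member, the dendritic sums were 1.69 to 2.03 in untreated and 3.99 to 5.61 in treated liver, and with it 144 to 171 and 134 to 163. Of 10 B and plasma cell markers 5 rose and 2 fell (median 0.49), with Ms4a1 among the former at 1.80 ± 0.38. Blk, Pax5 and Tnfrsf17 were not above background in either group. The B and plasma cell sums were 101 to 116 in untreated and 88.2 to 113 in treated liver. Without Xbp1, the brightest member, they were lower in treated liver, 18.6 to 27.4 against 12.4 to 18.3. The 13 platelet and erythroid markers split into 4 higher and 4 lower. Gata1, an erythroid and megakaryocyte factor, was not well above background in untreated liver and was at least 1.07-fold higher (adjusted p = 0.00371), with overlapping arrays. Adjusted for slide, the neutrophil list kept 14 higher and 2 lower (median 3.76, slide 2 3.91), the T and NK list 18 and 1 (2.54, slide 2 2.31) and the monocyte list 9 and 0 (1.23, slide 2 1.57). In that fit the cytotoxic list had 12 higher and 1 lower (1.84, slide 2 2.11).

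These leukocyte markers moved with the interferon, presentation, chemokine, cytokine and cell cycle lists, and their part in those results was not tested.

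Markers of the liver's own non-parenchymal cells were mostly lower. Of 21 sinusoidal endothelial markers 15 fell and none rose (median -0.97). The lectin gene Clec4g had levels of 5.45, 5.12, 5.31, 5.18 and 5.44 in untreated and 1.14, 1.35, 1.19, -0.12 and 0.92 in treated mice, a 21.1-fold fall (-4.40 ± 0.25, adjusted p = 2.56e-12), with replicate 4 lowest. Oit3 (-2.92 ± 0.25), Ehd3 (-2.78 ± 0.16) and the bone morphogenetic protein Bmp2, an endothelial signal for hepcidin (-1.91 ± 0.17), fell as well. The summed intensity of the list was 130 to 152 in untreated and 53.6 to 61.2 in treated liver, where Wnt2 was not above background, while Cd209b was not above it in untreated liver.

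Of 16 Kupffer cell markers 12 fell and 2 rose (median -0.95, summed intensity 173 to 249 in untreated and 78.9 to 127 in treated liver, where Cd163 was not above background). Vsig4, a complement receptor, went from 4.05, 3.43, 3.88, 3.77 and 3.97 to 0.77, 0.23, 0.56, -1.10 and 0.25, a 12.8-fold fall (-3.68 ± 0.33), and Clec4f fell 11.9-fold (-3.57 ± 0.36). Adgre1, which encodes F4/80 (-1.92 ± 0.26), and Csf1r, the receptor for the macrophage growth factor CSF1 (-1.15 ± 0.15), fell less. The scavenger receptor gene Marco was higher (1.17 ± 0.41), with overlapping groups, and its call was lost once slide was adjusted for (1.58, adjusted p = 0.0774) and without untreated replicate 3 or treated replicate 3. Stellate and fibroblast markers fell in 9 of 15 cases and rose in 3 (median -0.72), with Colec11 (-3.63 ± 0.15), Reln (-2.93 ± 0.18) and Ngfr (-1.73 ± 0.15) lower and the contractile protein gene Tagln higher (1.11 ± 0.15). Of 14 cholangiocyte and progenitor markers 4 rose and 1 fell (median -0.03), where 22.8% of all genes rose. Those that rose included Mmp7 (20.6-fold, 4.37 ± 0.25), Tff3 (3.29 ± 0.41) and Sox9 (1.26 ± 0.16). The summed intensity of this list overlapped between the groups, so the list as a whole showed no clear rise. In the slide-adjusted fit, the endothelial, Kupffer and stellate lists had 11, 5 and 7 genes lower, with medians of -0.87, -0.81 and -0.58, and slide 2 gave -0.74, -0.51 and -0.51.

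**Figure D2:**
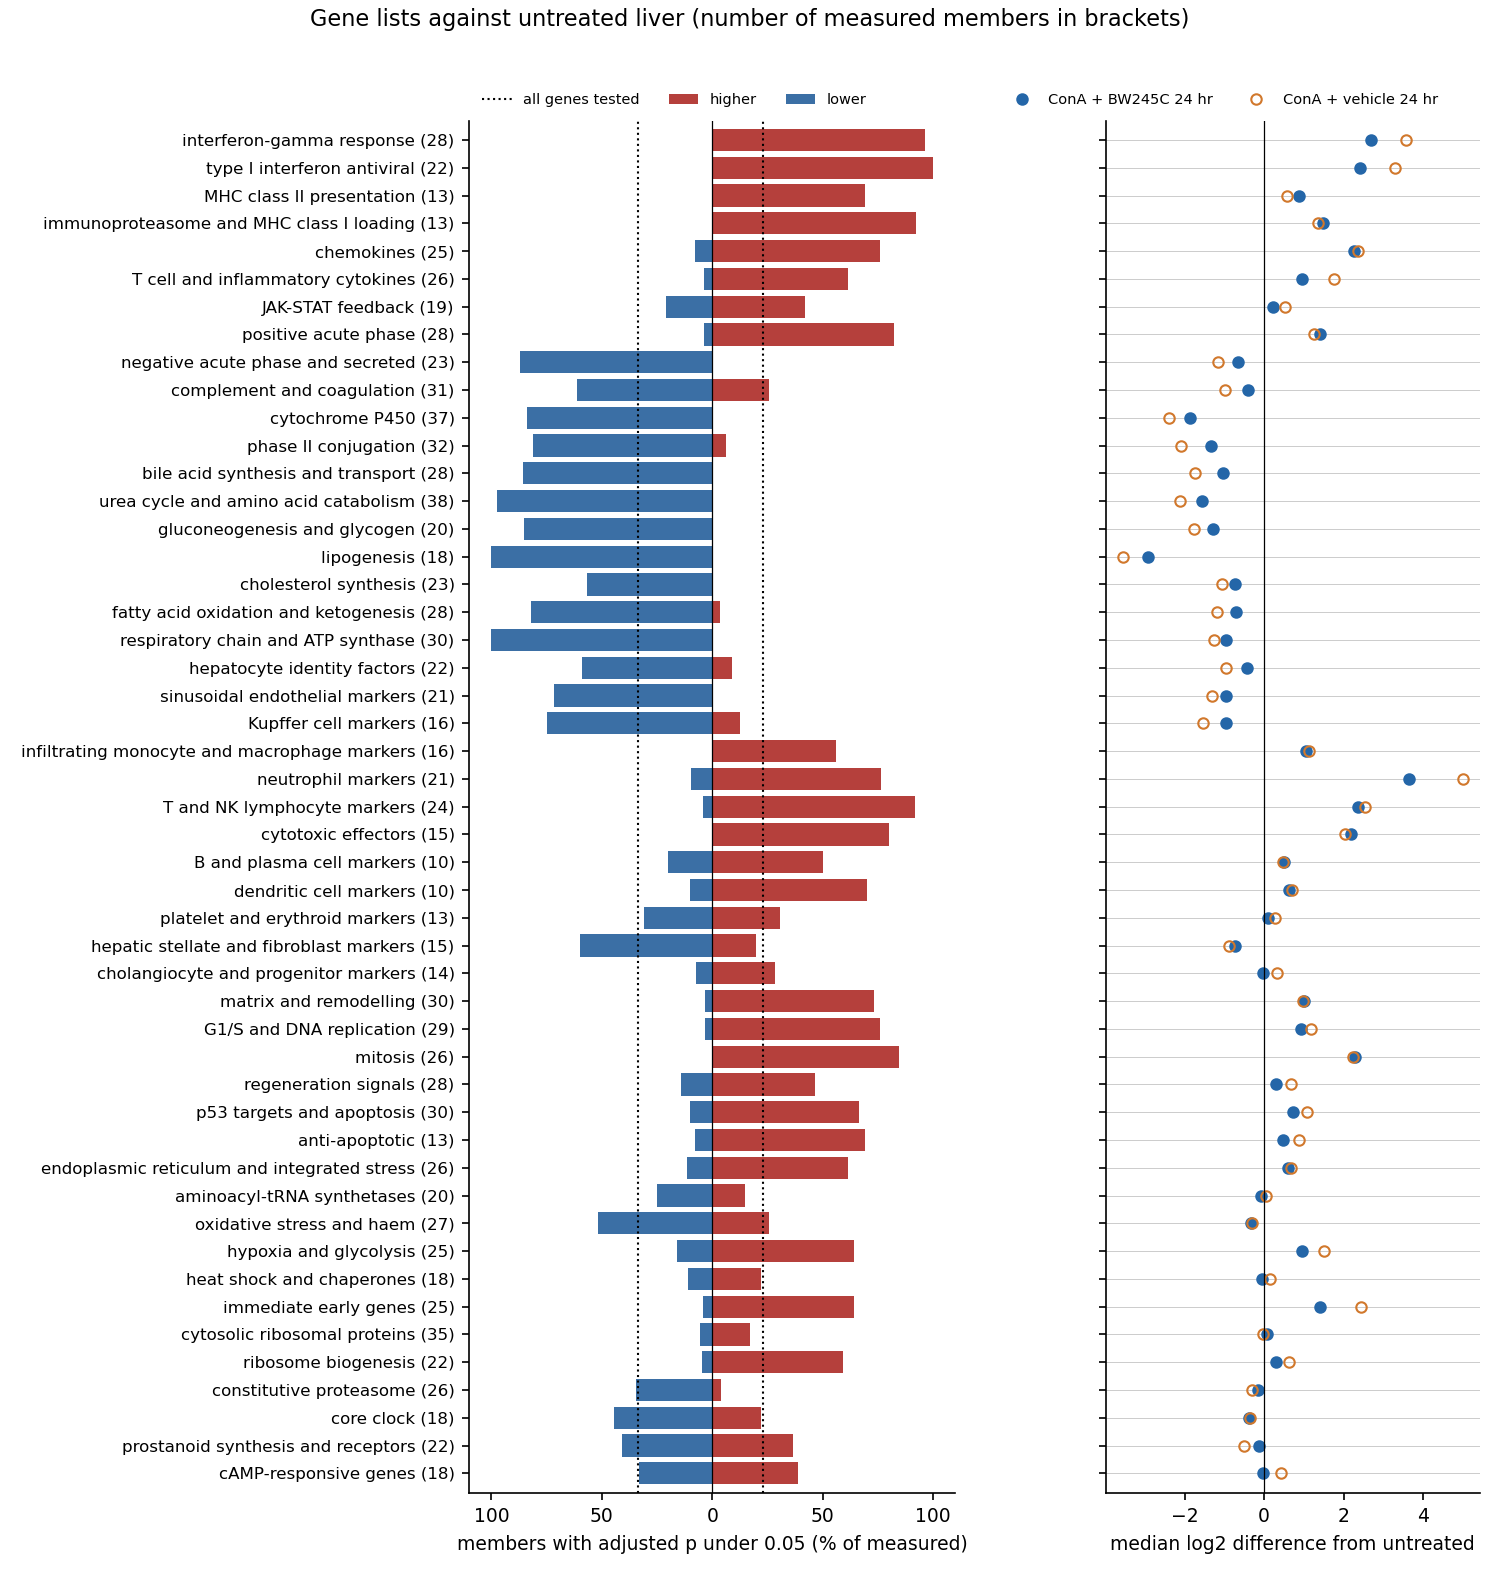
Left, share of each gene list's measured members (number in brackets) that were higher (red, to the right) or lower (blue, to the left) in ConA + BW245C liver at 24 hr than in untreated liver, with dotted lines at the 22.8% and 33.8% of all genes. Right, median log2 difference from untreated liver after ConA with BW245C (filled) and after ConA with vehicle (open), which share the untreated mice. Immune, mitosis and positive acute phase lists lie to the right of 0. Hepatocyte metabolism, endothelial and Kupffer lists lie to the left.

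Acute phase genes were strongly raised. Of 28 measured members of the positive acute phase list 23 rose and 1 fell, with a median of 1.40, and the 5 treated mice were within 1.27 to 1.45 for that median. Saa1, the major circulating serum amyloid, rose 33.7-fold (5.08 ± 0.16), from 5.32, 5.33, 5.39, 4.29 and 4.68 to 9.97, 10.21, 10.21, 9.89 and 10.12, and Orm3, an orosomucoid, 20.3-fold (4.34 ± 0.12). Both belong to families of near-identical copies that a probe may not separate. Hamp, the iron hormone hepcidin, was the member that fell (-0.41 ± 0.15), but its arrays overlapped and the call was lost after adjustment for slide (-0.25, adjusted p = 0.516), in the series matrix and without any one of 4 arrays. When slide was adjusted for, 23 rose and none fell (median 1.49, slide 2 1.61).

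Other secreted hepatocyte products were lower. All 20 changes among 23 measured negative acute phase and secreted protein genes were decreases (median -0.65), including Serpina6, the corticosteroid carrier (17.4-fold, -4.12 ± 0.28), antithrombin, Serpinc1 (-0.91 ± 0.09), Apoc4 (-1.46 ± 0.18) and the retinol carrier Rbp4 (-0.74 ± 0.09). Albumin fell slightly (-0.30 ± 0.09), and the call was lost in the slide-adjusted fit (-0.29, adjusted p = 0.169) and in the quantile-normalised and series matrix values. Complement and coagulation genes divided into 19 lower and 8 higher of 31 (median -0.42). The complement component C8g (-2.01 ± 0.14), factor VII, F7 (-1.21 ± 0.13), F13b (-1.14 ± 0.13) and protein C, Proc (-1.09 ± 0.12), fell, whereas C2 (0.80 ± 0.10) and the fibrinolysis inhibitor Cpb2 (0.64 ± 0.10) rose. Under adjustment for slide, the secreted list had 15 lower (median -0.68, slide 2 -0.52), and complement and coagulation 12 lower and 7 higher (-0.27, slide 2 -0.12).

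The 12 largest decreases included 5 genes of fatty acid synthesis and triglyceride metabolism. Fasn, fatty acid synthase, fell 40.6-fold (-5.35 ± 0.39, adjusted p = 9.71e-11), from 2.74, 4.94, 4.93, 4.77 and 4.26 to -1.37, -0.47, -0.40, -1.64 and -1.20. Thrsp, a regulator of lipogenesis, fell 39.3-fold (-5.30 ± 0.30), from 6.77, 8.61, 8.34, 8.40 and 8.04 to 2.08, 2.74, 3.54, 2.45 and 2.86. In both genes untreated replicate 1 was the lowest of the untreated mice and still above every treated one. The elongase gene Elovl6 fell 29.4-fold (-4.88 ± 0.28) and Pnpla3, a lipid droplet lipase, 23.6-fold (-4.56 ± 0.45). Its relative Pnpla5 was at least 15.4-fold lower (adjusted p = 9.96e-11), since it was not above background in treated liver. All 18 measured lipogenesis genes fell, with a median of -2.92, the most negative of the 49 lists, and malic enzyme, Me1, was among them (-3.66 ± 0.26). The medians of the 5 treated mice were -3.15, -2.81, -2.54, -3.22 and -2.93, against -1.0 to 0.34 in the untreated mice. All 18 stayed lower once slide was adjusted for (median -2.74), and slide 2 gave -2.89.

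The remaining large decreases lay in several functions. Slc2a4, the insulin-regulated glucose transporter GLUT4, fell 53.3-fold (-5.73 ± 0.60), and Chrna4, a nicotinic receptor subunit, 37.2-fold (-5.22 ± 0.86). Hamp2, a relative of hepcidin, fell 38.4-fold (-5.26 ± 0.36) and Hamp itself by far less. Colec10, a collectin of innate defence, went from 3.66, 3.63, 3.66, 3.77 and 3.91 to -0.54, -0.70, -1.33, -1.93 and -1.07, a 28.6-fold fall (-4.84 ± 0.19). A1bg, a plasma glycoprotein, fell 39.3-fold with a wide error (-5.29 ± 1.03), and its treated levels were -1.83, -2.70, -2.44, -4.54 and -3.38. The steroid sulfotransferases Sult2a1 (-4.76 ± 0.70) and Sult2a4 (-4.76 ± 0.76) fell together, but they are near-identical copies and may share signal. Their treated mice split, with Sult2a1 at 2.56, 0.32, 3.18, 0.57 and 0.72.

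Hepatocyte metabolism was lower in each list tested. Of 37 cytochrome P450 genes 31 fell and none rose (median -1.86), with Cyp1a2 at -3.45 ± 0.27, Cyp4f14 at -2.64 ± 0.18, Cyp2b9 at -2.31 ± 0.17 and Cyp2f2 at -2.20 ± 0.15. Of 32 conjugation genes 26 fell and 2 rose (median -1.33). The glucuronosyltransferases Ugt2b1 (-3.08 ± 0.19) and Ugt2a3 (-2.28 ± 0.11) and the glutathione transferase Gstt1 (-2.03 ± 0.13) were lower, and the transferases Gsta1 (2.59 ± 0.43) and Gstp1 (1.03 ± 0.16) were the pair that rose. The medians of the 5 treated mice for the P450 list were -2.0, -1.79, -1.51, -1.99 and -1.56. After adjustment for slide, 29 P450 and 21 conjugation genes were lower (medians -1.69 and -1.21), and slide 2 gave -1.51 and -1.09.

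Bile acid genes fell in 24 of 28 cases with none higher (median -1.03). Cyp7a1, the rate-limiting enzyme of bile acid synthesis, had levels of 3.62, 3.28, 3.02, 3.75 and 3.73 in untreated and 0.78, 0.91, 0.46, 0.58 and -0.02 in treated mice, a 7.66-fold fall (-2.94 ± 0.71, adjusted p = 0.00125). Cyp8b1, which sets the proportion of cholic acid, fell 7.9-fold (-2.98 ± 0.33), from 3.37, 3.68, 3.50, 3.84 and 3.33 to 0.86, 0.89, 0.78, -0.12 and 0.40. Cyp27a1 of the alternative pathway (-2.23 ± 0.14), the bile acyl-CoA synthetase Slc27a5 (-1.61 ± 0.12), the uptake carrier Slco1a4 (-2.71 ± 0.21) and the export pump Abcb11 (-1.94 ± 0.18) fell too. Adjusted for slide, 15 of the 28 were lower (median -0.72), and slide 2 gave -0.70.

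Amino acid and energy metabolism moved the same way. Of 38 urea cycle and amino acid genes 37 fell (median -1.57). Ass1, argininosuccinate synthase, went from 9.37, 9.86, 9.51, 9.59 and 9.46 to 6.96, 6.89, 7.35, 6.73 and 7.27, a 5.74-fold fall (-2.52 ± 0.16), and the methyl group regulator Gnmt (-2.77 ± 0.14), liver glutaminase Gls2 (-2.48 ± 0.15) and Aldh6a1 (-1.45 ± 0.09) fell as well. All 30 genes of the respiratory chain and ATP synthase fell, by a smaller median of -0.97, for example Cyc1 (-1.71 ± 0.13) and Ndufb8 (-1.35 ± 0.10). The gluconeogenesis and glycogen list also holds genes of other sugar metabolism. Of its 20 genes 17 fell (median -1.30), with pyruvate kinase, Pklr, at -3.32 ± 0.19, glycogen phosphorylase, Pygl, at -2.16 ± 0.12 and ketohexokinase, Khk, at -2.14 ± 0.14. In the slide-adjusted fit, 33, 28 and 11 of the genes of these lists were lower, with medians of -1.47, -0.90 and -1.0, and slide 2 gave -1.45, -0.86 and -1.16.

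Fatty acid oxidation and ketogenesis had 23 of 28 genes lower and 1 higher (median -0.70). The peroxisomal enzymes Acaa1b (-2.60 ± 0.21) and Ehhadh (-1.82 ± 0.20) were among the former, and the lipase inhibitor Angptl4 was the one that rose (0.73 ± 0.29), with overlapping groups and a call lost without any one of 5 arrays. Cholesterol synthesis was less affected, with 13 of 23 lower and none higher (median -0.74), among them Sc5d (-1.92 ± 0.18) and Pmvk (-1.85 ± 0.22). Hepatocyte identity factors fell in 13 of 22 cases and rose in 2 (median -0.44). The growth hormone receptor Ghr fell most clearly (-1.92 ± 0.14), Cebpa fell modestly (-0.72 ± 0.14), and Cebpb, which drives acute phase genes, rose (0.60 ± 0.16). When slide was adjusted for, 15, 8 and 5 genes of these lists were lower, with medians of -0.66, -0.84 and -0.39. Slide 2 gave -0.54, -0.59 and -0.21. The 5 of 22 identity factors are near the share of all genes in that fit, where 3159 of 15124 were lower.

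Cell cycle genes were higher. Of 26 mitosis genes 22 rose and none fell (median 2.30). The spindle checkpoint kinase gene Bub1 had levels of -6.58, -5.99, -6.72, -6.77 and -6.24 in untreated and -2.80, -3.29, -2.88, -3.14 and -2.92 in treated liver, a 11-fold rise (3.45 ± 0.19, adjusted p = 9.65e-13), and Mki67 (2.64 ± 0.19) and Ube2c (2.43 ± 0.18) rose with it. Of 29 genes of G1/S transition and DNA replication 22 rose and 1 fell (median 0.93), with cyclin E1, Ccne1, at 2.49 ± 0.13 and Uhrf1 at 3.84 ± 0.26. Cdc6, a licensing factor, was at least 3.44-fold higher (adjusted p = 2.31e-11), although another of its probes gave 1.91. Thymidine kinase, Tk1, was the gene that fell (-1.21 ± 0.19), a call lost after adjustment for slide (-0.76, adjusted p = 0.0915). Which cells divided was not tested, and lymphocyte and monocyte markers rose in the same livers. Under adjustment for slide, 21 mitosis and 20 G1/S genes were higher (medians 2.43 and 1.03), and slide 2 gave 2.29 and 0.99.

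Matrix and remodelling genes rose in 22 of 30 cases and fell in 1 (median 0.99). Timp1, an inhibitor of matrix proteases, rose 71.4-fold (6.16 ± 0.29), Plaur, the urokinase receptor, 15.6-fold (3.97 ± 0.31), and the protease gene Mmp3 was at least 5.76-fold higher (adjusted p = 4.16e-10). Timp2 fell (-1.44 ± 0.12), but another probe of it gave -0.27. Among 28 regeneration signals 13 rose and 4 fell (median 0.30). The growth factor amphiregulin, Areg, was at least 4.38-fold higher (adjusted p = 2.04e-08), and the receptors Tnfrsf12a (2.76 ± 0.34) and Osmr (1.66 ± 0.19) rose. After adjustment for slide, matrix genes were 20 higher and 2 lower (median 1.14, slide 2 1.07) and regeneration signals 11 and 3 (0.40, slide 2 0.45).

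Stress and death genes were partly raised. Of 30 p53 targets and apoptosis genes 20 rose and 3 fell (median 0.73), with the death receptor Tnfrsf10b at 2.16 ± 0.18, the necroptosis effector Mlkl at 2.26 ± 0.19, Bax at 1.49 ± 0.11 and Bbc3, which encodes PUMA, lower at -0.96 ± 0.23. Phlda3, a p53 target that inhibits AKT, had levels of -0.68, -0.53, -0.57, -0.83 and -0.79 in untreated and 2.32, 1.69, 2.73, 2.64 and 3.02 in treated mice (3.16 ± 0.20). Of 13 anti-apoptotic genes 9 rose and 1 fell (median 0.47), including Bcl2a1d, one of several near-identical copies (2.31 ± 0.23), and Bcl2 (0.73 ± 0.09). Endoplasmic reticulum and integrated stress genes rose in 16 of 26 cases and fell in 3 (median 0.60), with Atf3 at 3.37 ± 0.36, asparagine synthetase, Asns, at 2.68 ± 0.30 and Ddit3, which encodes CHOP, at 1.81 ± 0.16. Adjusted for slide, these 3 lists had 17, 4 and 14 genes higher, with medians of 0.86, 0.51 and 0.79, and slide 2 gave 0.88, 0.59 and 0.80.

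Hypoxia and glycolysis genes rose in 16 of 25 cases and fell in 4 (median 0.94). The lactate exporter Slc16a3 rose 24.2-fold (4.60 ± 0.28), and the glycolytic enzymes Pkm (3.25 ± 0.22) and Pfkp (2.79 ± 0.28, with 0.46 from another probe) rose, while Pdk1 fell (-2.02 ± 0.12). Of 25 immediate early genes 16 rose and 1 fell (median 1.40), among them Egr2 (3.64 ± 0.32), Dusp2 (2.64 ± 0.21) and Fosl1, which was at least 5.02-fold higher (adjusted p = 2.85e-09). Oxidative stress and haem genes were 7 higher and 14 lower of 27 (median -0.32), with haem oxygenase, Hmox1, at 1.50 ± 0.18 and catalase, Cat (-1.74 ± 0.13), and Gpx1 (-1.43 ± 0.14) lower. Heat shock genes gave 4 higher and 2 lower of 18, with Hspa1a, which has a near-identical copy, at 2.56 ± 0.33. In the slide-adjusted fit, the hypoxia list had 15 higher and 2 lower (median 1.16, slide 2 1.14) and the immediate early list 12 and 0 (1.50, slide 2 1.43).

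Growth and housekeeping lists were closer to the median of all genes. Ribosome biogenesis genes rose in 13 of 22 cases and fell in 1 (median 0.31), with the helicase gene Ddx21 at 1.29 ± 0.14 from its brightest probe and 0.21 from another. Of 35 cytosolic ribosomal protein genes 6 were higher and 2 lower (median 0.08), of 26 constitutive proteasome genes 1 was higher and 9 lower (median -0.15), and of 20 aminoacyl-tRNA synthetases 3 were higher and 5 lower (median -0.07). These medians are smaller than the gap between scalings, and the proteasome and synthetase medians were above 0 in quantile-normalised and series matrix values. Gapdh, often taken as a reference, had a difference of -0.19 ± 0.09 (adjusted p = 0.0723). Among 18 clock genes 4 rose and 8 fell (median -0.38). The output factor gene Dbp was higher (2.06 ± 0.54), a call lost in the slide-adjusted fit (1.83, adjusted p = 0.105), and the clock repressor gene Ciart was at least 1.32-fold higher (adjusted p = 0.00165), with overlapping arrays. The hour of collection is not in the labels, so time of day cannot be told apart from treatment here.

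The agonist's own pathway could be followed only in part. Ptgdr, which encodes DP1, and Ptgdr2, the other receptor for prostaglandin D2, were above background on 0 of the 25 arrays, and Hpgds, a synthase of prostaglandin D2, was above it on 2 untreated arrays and on 0 treated ones, so none of the 3 was tested. The lipocalin-type synthase gene Ptgds fell 7.17-fold (-2.84 ± 0.44, adjusted p = 9.40e-06), from 1.83, 1.57, 1.13, 1.36 and 0.94 to -1.29, -1.57, -1.05, -2.23 and -1.25, with no overlap. Ptgs2, the inducible cyclooxygenase, was not well above background in untreated liver and at least 2.04-fold higher in treated liver (adjusted p = 2.31e-05), where replicate 2, at -6.01, was close to the untreated mice and the others lay between -3.72 and -2.58. The prostacyclin receptor Ptgir rose 5.89-fold (2.56 ± 0.26), from -4.58, -4.84, -4.38, -4.75 and -4.99 to -2.01, -2.58, -1.93, -1.97 and -2.26. The prostaglandin E2 receptor Ptger2 (-0.97 ± 0.18) and the degrading enzymes Hpgd (-0.81 ± 0.12) and Ptgr2 (-0.74 ± 0.10) fell.

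Of the 22 measured prostanoid genes 8 were higher and 9 lower. Of 18 cAMP-responsive genes, which DP1 is known to drive through Gs, 7 were higher and 6 lower. Over all genes 22.8% were higher and 33.8% lower. Adjusted for slide, 5 prostanoid genes were higher and 5 lower (median -0.13), and 3 and 2 cAMP-responsive genes (-0.16). In that fit 2365 of all 15124 genes were higher and 3159 lower. The medians of -0.12 and -0.03 were both above 0 in the series matrix values. In the 5 treated mice the median of the cAMP-responsive genes was -0.08, -0.28, 0.07, 0.05 and 0.26. Thbs1, a member of that list, was higher (1.01 ± 0.26), with overlapping groups and a call lost once slide was adjusted for (1.04, adjusted p = 0.0991).

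The treated mice differed among themselves, and not in the same order for every group of genes. For immediate early genes the 5 list medians were 1.22, 0.45, 1.51, 1.70 and 1.93, and for hypoxia and glycolysis 0.86, 0.18, 1.09, 1.31 and 1.38, with replicate 2 far below the others in both and close to the untreated range for the latter, -0.03 to 0.04. Replicate 2 was also lowest for chemokines (2.47, 1.51, 2.48, 2.14 and 2.53) and neutrophil markers (3.87, 2.94, 3.62, 3.33 and 3.98). Its hepatocyte lists did not stand out. Replicate 3 was nearest to untreated liver and replicate 4 farthest for bile acid genes (-1.11, -0.82, -0.57, -1.35 and -1.03) and urea cycle genes (-1.68, -1.52, -1.29, -1.99 and -1.48). Replicate 3 was the treated mouse on slide 2, and replicate 4 the one with high pancreatic enzyme genes.

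**Figure D3:**
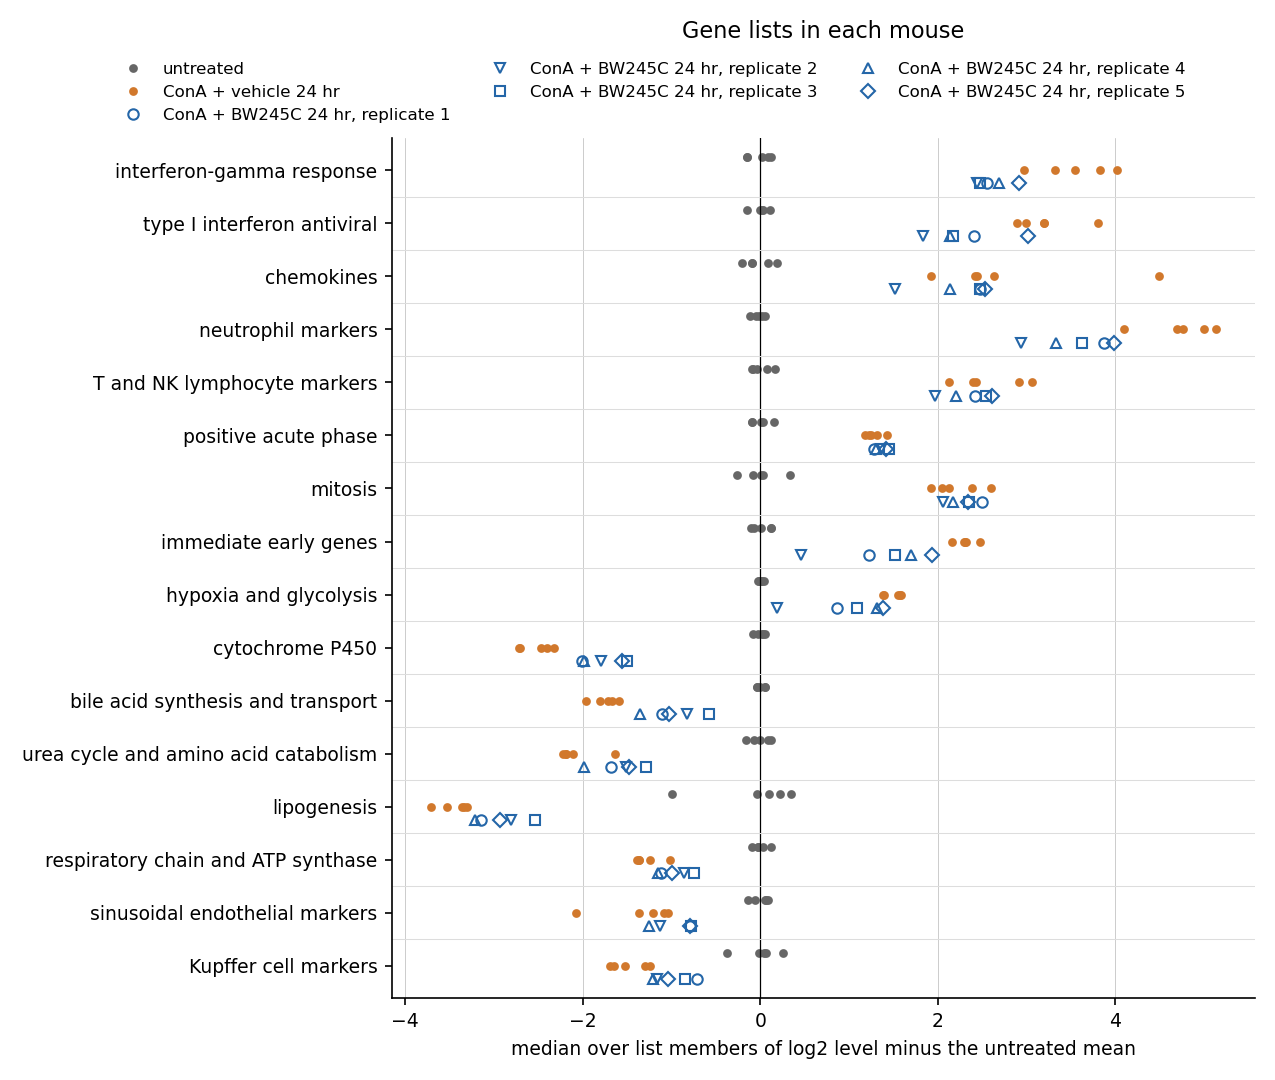
Median over the members of 16 gene lists of the log2 level minus the untreated mean, for each untreated mouse (grey), each ConA + vehicle mouse at 24 hr (orange) and each ConA + BW245C mouse at 24 hr (blue, 1 symbol per replicate). Replicate 2 (downward triangle) is lowest for immediate early, hypoxia, chemokine and neutrophil lists, and replicate 3 (square) is nearest to 0 for most hepatocyte lists.

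Set beside the livers that received ConA and vehicle, the agonist-treated livers at 24 hr differed from untreated liver in fewer genes. Both comparisons with untreated liver use the same untreated mice, so they are given side by side, and the difference itself was tested directly between the groups that received ConA. Against untreated liver 10415 genes (68.9%; 29.8% higher and 39.1% lower) were called after vehicle and 8550 after BW245C, with 4343 (28.7%) and 2687 changed at least 2-fold. Directly compared, 4016 genes (26.6%) differed between agonist and vehicle, 2660 (17.6%) higher and 1356 (8.97%) lower with the agonist, and 642 (4.24%) differed at least 2-fold. When slide was adjusted for, 4333 genes were called, 2302 higher and 2031 lower, a less uneven split. In the series matrix values the balance turned round in both comparisons, with 7260 higher and 3785 lower of 11045 for vehicle against untreated liver and 1958 higher and 2619 lower of 4577 for agonist against vehicle. The median over all genes there was 0.26 and -0.10, in place of -0.08 and 0.01, so small differences from vehicle have no settled direction. Slide 4 carried 3 agonist and 4 vehicle arrays, and differences within it are given below.

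**Figure D4:**
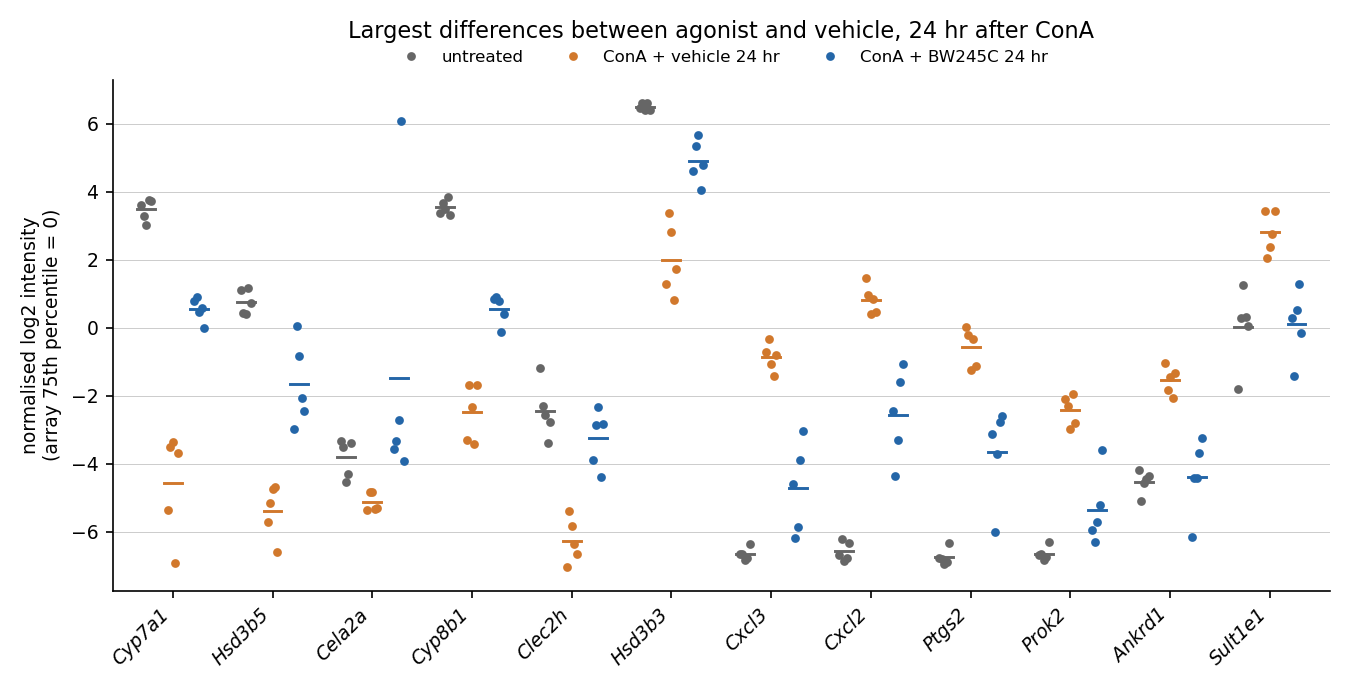
Normalised log2 intensity of the 6 genes most above and the 6 most below vehicle in ConA + BW245C liver at 24 hr, in untreated (grey), ConA + vehicle (orange) and ConA + BW245C (blue) mice, n = 5 each, with bars at the means. Cyp7a1 and Cyp8b1 lie between vehicle and untreated levels, and Cela2a is far higher in 1 agonist-treated mouse than in the other 4.

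Bile acid and steroid enzymes were among the genes most above vehicle. Cyp7a1 had levels of -5.35, -3.49, -3.35, -6.91 and -3.67 after vehicle. It was 34.2-fold higher with the agonist (5.10 ± 0.71, adjusted p = 3.12e-05, and 5.11 within slide 4). Its difference from untreated liver was -8.03 with vehicle and -2.94 with the agonist. Vehicle replicates 1 and 4 lay under the lowest signal well above background on their arrays (-5.10 and -4.90). The differences of Cyp7a1 that involve vehicle are therefore no exact sizes. Cyp8b1, at -3.31, -1.69, -2.34, -3.40 and -1.69 after vehicle, was 8.27-fold higher with the agonist (3.05 ± 0.33, slide 4 2.82). The 3-beta-hydroxysteroid dehydrogenase gene Hsd3b3 was 2.89 ± 0.34 above vehicle. Its relative Hsd3b5 and the lectin-like gene Clec2h were not well above background after vehicle and were at least 8.6-fold and at least 2.92-fold higher with the agonist (adjusted p = 6.03e-04 and 9.88e-05). Against untreated liver Hsd3b5 (-2.42 ± 0.72) and Hsd3b3 (-1.60 ± 0.34) fell, but not after adjustment for slide (-1.18 and -1.43, adjusted p = 0.438 and 0.0957), and Clec2h differed by -0.82 ± 0.48 (adjusted p = 0.15). Cela2a, the elastase gene noted above, was not well above background after vehicle either. Its fitted difference from vehicle was 3.64 with all mice (adjusted p = 0.0228) and 1.74 without replicate 4 (adjusted p = 1.53e-04). Against untreated liver it differed by 2.32 ± 1.15 (adjusted p = 0.0915) with that mouse and 0.43 without it.

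Across hepatocyte lists the agonist-treated livers were above vehicle in 25 of 37 P450 genes with none below (medians against untreated of -1.86 with the agonist and -2.38 with vehicle), 22 of 28 bile acid genes with 1 below (-1.03 and -1.73) and 26 of 31 complement and coagulation genes with none below (-0.42 and -0.99). In urea cycle and amino acid genes 25 of 38 were above vehicle and 1 below. In lipogenesis 4 of 18 genes were above vehicle, with none below and medians of -2.92 and -3.55. Fasn and Thrsp did not pass the test between agonist and vehicle, with differences of 0.63 ± 0.39 and 0.08 ± 0.30. Ass1 was 0.48 above vehicle (adjusted p = 0.0298), a call lost after adjustment for slide (0.30, adjusted p = 0.157) and without any one of 6 of the 10 arrays. Clec4g was 1.40 ± 0.25 above vehicle. Vsig4 was 0.96 ± 0.35 above it (adjusted p = 0.0481), a call lost in the slide-adjusted fit (0.78, adjusted p = 0.253) and without any one of 8 arrays.

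Many inflammatory genes were below vehicle. The neutrophil attractants Cxcl3 and Cxcl2 were 14.3-fold (-3.84 ± 0.49) and 10.4-fold (-3.38 ± 0.45) lower with the agonist, and within slide 4 the differences were -3.98 and -3.47. Cxcl2 was at least 4.34-fold above untreated liver (adjusted p = 9.36e-08), where it was not well above background, at -2.46, -4.36, -3.30, -1.59 and -1.07 with the agonist and 1.47, 0.96, 0.39, 0.84 and 0.48 with vehicle. Cxcl3, above background on 2 of 5 agonist arrays and on 0 of 5 untreated ones, passed the test against untreated liver (adjusted p = 0.00163) but not after adjustment for slide (adjusted p = 0.27), at -4.58, -6.18, -5.85, -3.88 and -3.03 with the agonist. Ptgs2 differed from vehicle by -3.07 ± 0.52 and the neutrophil-attracting peptide gene Prok2 by -2.93 ± 0.33, and Prok2 was above background in 1 agonist-treated mouse and in 0 of 5 untreated ones. Ankrd1, a stress-induced ankyrin repeat gene, and the oestrogen sulfotransferase Sult1e1 were lower than with vehicle (-2.84 ± 0.42 and -2.70 ± 0.58). Against untreated liver they differed by only 0.15 ± 0.42 (adjusted p = 0.781) and 0.08 ± 0.58 (adjusted p = 0.912).

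Cytokines fell short of the vehicle level in 18 of 26 cases, with Ifng at -1.47 ± 0.25, Il6 at -1.33 ± 0.34, Il10 at -1.03 ± 0.24 and Il4 at -0.96 ± 0.15, whereas Tnf, at -0.91 ± 0.37, missed the threshold (adjusted p = 0.0757) and passed it after adjustment for slide (-1.26, adjusted p = 0.0264) and without agonist replicate 5 or vehicle replicate 5. Interferon-gamma and type I interferon genes were below vehicle in 15 of 28 and 13 of 22 cases, immediate early genes in 19 of 25 and neutrophil markers in 12 of 21, with S100a8 at -1.71 ± 0.36 and S100a9 at -1.74 ± 0.33. Slfn4 (-2.18 ± 0.42), Socs3 (-1.44 ± 0.24) and Atf3 (-1.64 ± 0.36) were lower too, and Ch25h was -1.26 ± 0.43 (adjusted p = 0.0334), a call lost without any one of 7 arrays. In the interferon-gamma list the median within slide 4 was -0.60, in immediate early genes -0.96 and in neutrophil markers -1.35.

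Some of the largest responses to ConA did not pass the test between agonist and vehicle. Ubd differed by 0.08 ± 0.33, Saa3 by 0.41 ± 0.21, Lcn2 by 0.03 ± 0.17, Cxcl9 by 0.17 ± 0.20 and Ido1 by 0.76 ± 0.51. Of the 26 mitosis genes 0 passed in limma, 0 after adjustment for slide and 0 at an unadjusted p under 0.05, with Bub1 at -0.04 ± 0.19 and Mki67 at 0.13 ± 0.19, and of the 28 positive acute phase genes 1 was higher and 2 lower (0 and 4 with slide adjusted for). T and NK markers were below vehicle in 2 of 24 cases. The class II exchange genes H2-DMa (0.86 ± 0.28) and H2-DMb1 (0.74 ± 0.21) were above vehicle, the call for H2-DMa being lost without agonist replicate 3, vehicle replicate 1 or vehicle replicate 5, and neither difference passed in the slide-adjusted fit (0.73 and 0.64, adjusted p = 0.0972 and 0.0548).

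Between 3 and 24 hr after ConA and BW245C, 10596 genes (70.1%) differed, 5407 (35.8%) higher and 5189 (34.3%) lower at 24 hr. In the series matrix values the split was 7189 higher and 3626 lower of 10815, with the median over all genes at 0.22. At 3 hr 10479 genes (69.3%) differed from untreated liver, 4084 (27%) of them higher and 6395 (42.3%) lower. No slide held agonist-treated mice of both times, and the slides are linked by mice given vehicle. Adjusted for slide through these, 8233 genes differed between the times, 3931 higher and 4302 lower at 24 hr, and 7790 of the 10596 were among them in the same direction. Several inflammatory genes that were high early were far lower at the later time. Ccl1, a T cell-derived chemokine, was at least 62.7-fold above untreated liver at 3 hr and at least 62.3-fold lower at 24 than at 3 hr (adjusted p = 7.20e-11). At 24 hr it was above background on 0 of 5 arrays, as in untreated liver. Its call at that time (adjusted p = 0.0262) therefore compares background signals, and was lost after adjustment for slide (adjusted p = 0.104) and without treated replicate 1, 3 or 4. The small GTPase gene Rnd1 and the kinase gene Ripk2 were 5.66 and 5.47 above untreated at 3 hr and differed by 0.16 ± 0.22 and 0.44 ± 0.22 at 24 hr, with adjusted p of 0.572 and 0.0904. The endothelial selectin gene Sele was at least 11.3-fold above untreated at 3 hr and above background in 1 of 5 mice at 24 hr (adjusted p = 0.0926). Ripk2 passed at 24 hr without untreated replicate 5 and Sele without treated replicate 3. Tnfaip3, the A20 inhibitor of NF-kappaB, was still higher at 24 hr (1.85 ± 0.19, against 6.72 at 3 hr).

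**Figure D5:**
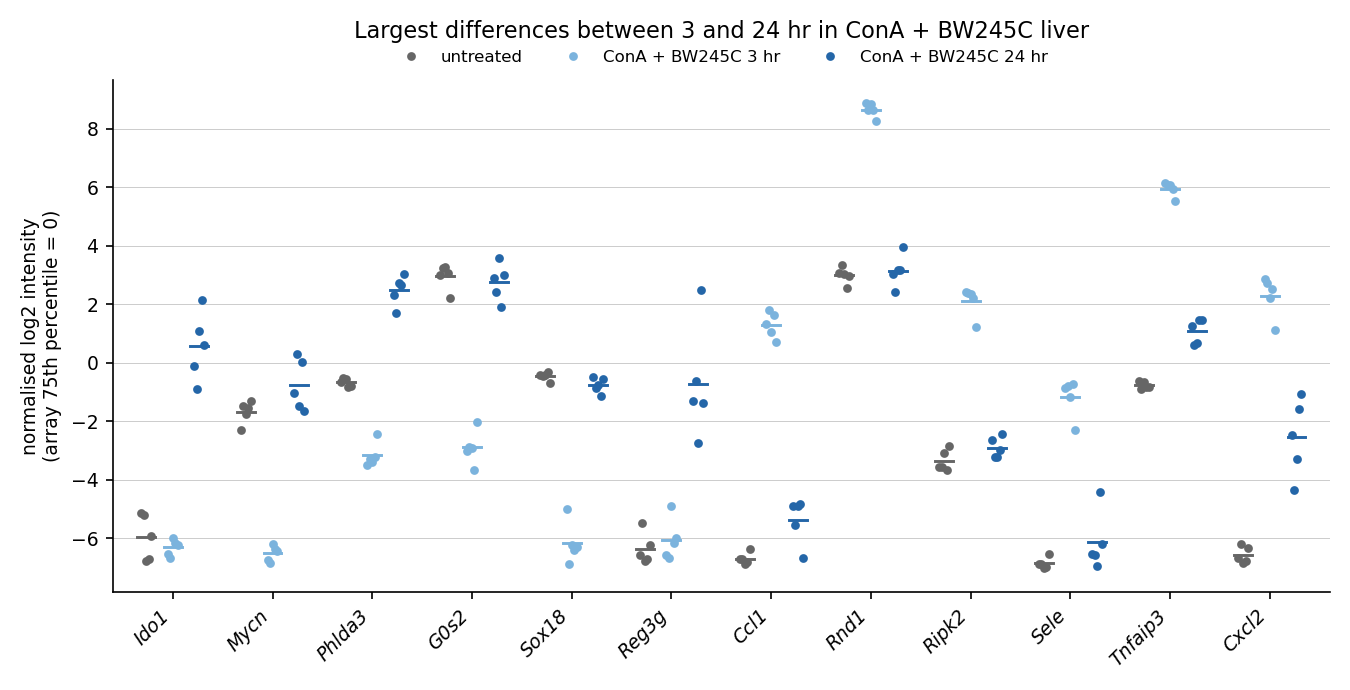
Normalised log2 intensity of the 6 genes most above and the 6 most below the 3 hr level in ConA + BW245C liver at 24 hr, in untreated (grey), 3 hr (light blue) and 24 hr (dark blue) mice, n = 5 each, with bars at the means. G0s2, Sox18, Rnd1 and Ripk2 are near the untreated level at 24 hr after a fall or rise at 3 hr, and Ido1, Phlda3 and Reg3g are above it.

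Genes higher at 24 than at 3 hr were of several kinds. G0s2, an inhibitor of triglyceride lipase, was -5.86 against untreated at 3 hr, and the endothelial factor gene Sox18 was at least 14.7-fold lower than untreated. At 24 hr they differed from untreated by only -0.21 ± 0.28 and -0.31 ± 0.23 (adjusted p = 0.551 and 0.253). Mycn, a growth-promoting transcription factor, was at least 6.31-fold lower than untreated at 3 hr and 0.90 ± 0.32 above it at 24 hr, the latter with overlapping groups and a call lost once slide was adjusted for (0.32, adjusted p = 0.662) and without any one of 3 arrays. Ido1 was not above background in any mouse at 3 hr and was at least 29.8-fold higher at 24 hr (adjusted p = 6.42e-11). Reg3g, an antibacterial lectin, was at least 15.5-fold above untreated at 24 hr (adjusted p = 3.81e-07). Its treated levels were -1.33, -0.62, -2.74, 2.50 and -1.40, highest in replicate 4, and the fitted log2 difference of 5.64 became 4.84 without that mouse.

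At the level of lists, immediate early genes went from a median of 2.01 at 3 hr to 1.40 at 24 hr and interferon-gamma genes from 4.08 to 2.70. The type I interferon genes moved the other way, from 0.82 to 2.41, with 17 of 22 higher at 24 than at 3 hr and 1 lower. Mitosis genes went from -0.40 to 2.30, and T and NK markers from 0.68 to 2.37. At 3 hr 4 of 26 mitosis genes were higher and 9 lower than untreated, against 27% and 42.3% of all genes, whose median was -0.18. Of 37 P450 genes 6 were below untreated at 3 hr and 31 at 24 hr, and of 38 urea cycle and amino acid genes 6 and 37. P450 genes had a median of -0.14 at 3 hr and -1.86 at 24 hr, and urea cycle genes -0.11 and -1.57. Lipogenesis was already at -1.47 at 3 hr. Both times are set against the same untreated mice.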

How the data were processed

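Livers of 25 female mice (5 groups of 5) were hybridised singly to 1-colour Agilent arrays. Per the labels' protocols, column-purified RNA (0.5 ug) was labelled with Cy3. The deposited scanner intensity values were, per the file headers, background-subtracted and detrended within each array by Agilent Feature Extraction 10.7.3.1 (9.1 per the submitters' processing notes) and not scaled between arrays. In the deposited series matrix each array's intensity values stand multiplied by a constant, and no label or header says how the authors set it.

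The log2 processed signal minus the array's 75th percentile was analysed. Of 55681 probes 26582 received a symbol from a table of RefSeq names and 29099 did not and were not used. A probe was kept where 5 or more of the 25 arrays showed it well above background (33526, 19645 of them with a symbol), and each gene took its brightest probe. The linear model in limma 3.58.1 (R 4.3.3) had a term for each of the 5 groups and used every array, and Benjamini-Hochberg adjustment ran over all genes. The fit was tested on simulated data. The labels name separate mice. Alternatives were other background corrections and scalings, filters, slide and replicate blocks, and leaving out each array. Mean signal is not used here, so normexp was run on the median signal (offset 50).

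Named genes were the 12 largest changes each way without overlap, up to 4 called members of each list with the smallest p in its main direction and 2 in the other, the 6 largest differences each way from vehicle and from 3 hr, and a few fixed genes. A few genes that this rule names are not reported here. The comparison, the 49 lists and the named genes were chosen with earlier results of these data known. Replicate numbers did not pair the samples.

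Figures and promoter searches used Python 3.11.15.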

Additional observations from a re-analysis of the deposited data

Results flagged for a closer look

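In groups of 5 mice, a single mouse lay apart from the other 4 in 28 of 406 gene and group combinations examined (203 named genes, untreated and ConA + BW245C at 24 hr), a gap beyond the 95% critical value of Dixon's ratio, which chance exceeds in about 1 of 20 groups. ConA + BW245C replicate 1 was apart in log2 level for Cebpb at 4.59 (nearest 4.90). ConA + BW245C replicate 2 was apart in log2 level for Gpnmb at -3.27 (nearest -1.64), Osmr at 0.68 (nearest 1.39) and Bcl2a1d at 1.58 (nearest 2.24). ConA + BW245C replicate 3 was apart in log2 level for Prtn3 at -0.14 (nearest -1.19). ConA + BW245C replicate 4 was apart in log2 level for Cela2a at 6.09 (nearest -2.72), Gls2 at 4.33 (nearest 4.82), Ehhadh at 3.05 (nearest 3.72), Clec4g at -0.12 (nearest 0.92), Gata1 at -7.05 (nearest -4.08) and Colec11 at 0.32 (nearest 0.96). Untreated replicate 1 was apart in log2 level for Elovl6 at 5.45 (nearest 6.63), Stat4 at -3.09 (nearest -4.03), Pklr at 1.92 (nearest 2.65), Me1 at 5.50 (nearest 6.69), Ccne1 at -1.73 (nearest -2.20), Bcl2 at -1.45 (nearest -1.63), Cat at 5.09 (nearest 5.30) and Fosl1 at -6.66 (nearest -5.45). Untreated replicate 2 was apart in log2 level for Oas1a at 1.81 (nearest 2.36), Slco1a4 at 2.67 (nearest 2.52) and Oit3 at 2.31 (nearest 2.52). Untreated replicate 3 was apart in log2 level for Thbs1 at -1.81 (nearest -2.59). Untreated replicate 4 was apart in log2 level for Pfkp at -2.26 (nearest -2.10). Untreated replicate 5 was apart in log2 level for Ptgs2 at -6.34 (nearest -6.78), G0s2 at 2.22 (nearest 3.00), Ccl11 at -6.56 (nearest -6.91) and Gata1 at -5.84 (nearest -6.75). Cela2a in replicate 4 is the elastase gene described with the other pancreatic enzyme genes above. For Hsd3b5, Cela2a and Clec2h the vehicle group was not above background, so their differences below are no exact sizes. The same holds for Cyp7a1, whose level in vehicle replicates 1 and 4 lay under the lowest signal well above background. Levels near or under -6 are at the background of the arrays.

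The change from untreated liver differed between agonist and vehicle at 24 hr for 27 of the 38 named genes set against vehicle (adjusted p under 0.05 in limma for the difference itself), 11 with the agonist higher and 16 with it lower. With the agonist the log2 level was higher for Cyp7a1 by 5.10, Hsd3b5 by 3.72, Cela2a by 3.64, Cyp8b1 by 3.05, Clec2h by 3.00 and Hsd3b3 by 2.89. It was also higher for Clec4g by 1.40, Vsig4 by 0.96, H2-DMa by 0.86, H2-DMb1 by 0.74 and Ass1 by 0.48. The agonist group was lower, by the log2 difference given, for Cxcl3 (-3.84), Cxcl2 (-3.38), Ptgs2 (-3.07), Prok2 (-2.93), Ankrd1 (-2.84) and Sult1e1 (-2.70). It was also lower for Slfn4 (-2.18), S100a9 (-1.74), S100a8 (-1.71), Atf3 (-1.64), Ifng (-1.47) and Socs3 (-1.44). Smaller differences of this sign were found for Il6 (-1.33), Ch25h (-1.26), Il10 (-1.03) and Il4 (-0.96). The calls for Ass1, Ch25h, H2-DMa and Vsig4 were each lost when single arrays were left out, and those for Ass1, H2-DMa, H2-DMb1 and Vsig4 after adjustment for slide.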

How the results depend on the processing

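Against untreated liver 8550 genes were called, and in all 5524 were called with the slide as a fixed block, 7383 with it as a random block (correlation 0.282), 8466 after quantile normalisation, 8294 with the normexp background correction and between 7864 and 8761 without single mice. Of the 8550, these fits also called, in the same direction, 4890 with the fixed and 7223 with the random block, 7386 with quantile normalisation and 7671 with normexp. Replicate numbers did not pair the samples: arrays of the same number deviated from their group means with a median correlation of -0.01, against -0.0029 for other pairs, and 4 of 25 arrays were best matched by their own number. The replicate block called 8444. A 2-fold minimum left 2687 genes, and 3953 against 3 hr, 642 against vehicle, 4343 for vehicle and 3536 for the 3 hr livers against untreated. At adjusted p under 0.01, 2289 differed from vehicle, and slide adjustment left 5184 genes for the 3 hr livers. Without single arrays 2927 to 4347 differed from vehicle, alternatives chosen, as the pancreatic genes and the sums without the brightest marker were, after the data had been seen.

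Among named genes called against untreated liver, Mycn alone changed direction, at -0.022 within slide 2. Of 10 named genes not called, 6 changed sign in at least 1 alternative (Ankrd1, G0s2, Gapdh, Rnd1, Sele and Sult1e1). List medians near 0 changed sign too. In series matrix values the medians became 0.17 for aminoacyl-tRNA synthetases, 0.20 for cAMP-responsive genes, 0.20 for cholangiocyte markers, 0.084 for the constitutive proteasome, 0.19 for heat shock genes and 0.11 for prostanoid genes. Quantile normalisation gave 0.079 for synthetases, 0.12 for the proteasome, 0.17 for heat shock genes and -0.067 for platelet and erythroid markers, which normexp put at -0.028. Centring on the median probe gave 0.020 for cAMP-responsive genes, 0.020 for cholangiocyte markers and 0.010 for heat shock genes, and averaging probes gave 0.082 for cAMP-responsive genes. Only probes found on all arrays gave 0.11 for cholangiocyte and -0.14 for platelet markers. The slide block gave 0.087 and slide 2 alone 0.33 for cholangiocyte markers, and 0.038 and 0.15 for heat shock genes. Without single mice the ranges were -0.097 to 0.068 for cAMP-responsive genes, -0.12 to 0.050 for cholangiocyte markers, -0.090 to 0.015 for heat shock genes and -0.0065 to 0.14 for platelet markers. The cause of these shifts was not tested. Adjusted for slide, 179 of 193 named genes called kept their calls, none reversed, and the 14 lost are given with their values above. Mean signal was not used here, so normexp took the median signal. Dim probes limit what can be said of low genes, since only 52.2% to 61.6% of spots were well above background.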
